A study of Mus musculus with 2 samples.

Results

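The genes described here are 10 members of the Sox family, Sox2, Sox3, Sox4, Sox6, Sox7, Sox9, Sox11, Sox15, Sox17 and Sox18, chosen by symbol from the 24354 genes of the deposited table, where all 10 were found beside 10 other Sox genes. Its values are FPKM, the fragments on a gene divided by transcript length and library size, of 2 mouse libraries, 1 of differentiating control ESCs (Diff–CONT) and 1 of differentiating ESCs with an inducible Ino80 knockout (Diff–iKO). According to the methods, both lines came from blastocysts with the floxed Ino80 allele (Ino80 2f/2f) and CreER, driven from ROSA26, was carried by the knockout line only, whereas the labels give the control genotype as WT and the other as Ino80 knockout. Both cultures formed embryoid bodies (EBs), were plated on gelatin on day 4, received medium with FBS, BMP4 and 0.5 µM 4-OHTM (the tamoxifen metabolite that switches on CreER) a day later and were kept in it for 7 days. Each condition had 1 library, so no difference below has a replicate check and no p-value is given. Ino80, the targeted gene, had 8.90 FPKM in the library labelled Diff–CONT against 10.3 in that labelled Diff–iKO. Its log2 ratio was 0.21, with a 95% counting interval of 0.11 to 0.31. Its value did not follow the knockout label, but it sums all exons, those outside the floxed part included, and so cannot check the deletion. Every direction below reads from the library labelled Diff–CONT to that labelled Diff–iKO, and pairs of values are given in the same order.

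Sox proteins are transcription factors that bind the minor groove of DNA through an HMG box and bend it, usually beside a partner factor that gives the lineage its specificity. Subgroups named by letter have like HMG boxes and often stand in for each other. SoxB1 factors (Sox2, Sox3) act in pluripotent cells and neural progenitors, SoxC factors (Sox4, Sox11) in neuronal and mesenchymal progenitors, and SoxD and SoxE factors (Sox6, Sox9) together in cartilage. SoxF factors (Sox7, Sox17, Sox18) act in endoderm and in blood and lymph vessels, and SoxG has Sox15, a gene of pluripotent cells, trophoblast giant cells and myoblasts.

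The relation between members can be read from their coding sequences (GENCODE vM21, GRCm38). The best-matching stretches of 180 coding bases were 78.3% to 91.1% identical in the 5 pairs of members within a subgroup and 56.7% to 79.4% identical in the 40 pairs across subgroups. For Sox17 and Sox18 the stretch that best matches between them lies in the part that codes for the HMG box and is shown because they had the largest log2 ratios of the 10 genes. It runs over an intron in both genes, on chr1:4492598-4493208 (minus strand, exons 3 and 4) for Sox17 and chr2:181670926-181671290 (minus strand, exons 1 and 2) for Sox18. The stretch of Sox2 that best matches this window of Sox17 lies in its single exon at chr3:34650539-34650718 (plus strand), and the best pair of stretches between these genes, not shown, differs at fewer bases. The lines are coding bases, 5′ to 3′, with the intron left out, and capitals mark bases that differ from Sox17.
Sox17: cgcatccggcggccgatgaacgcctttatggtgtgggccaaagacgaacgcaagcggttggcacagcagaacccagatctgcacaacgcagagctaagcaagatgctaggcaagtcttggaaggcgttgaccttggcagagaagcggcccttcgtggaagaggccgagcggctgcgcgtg
Sox18: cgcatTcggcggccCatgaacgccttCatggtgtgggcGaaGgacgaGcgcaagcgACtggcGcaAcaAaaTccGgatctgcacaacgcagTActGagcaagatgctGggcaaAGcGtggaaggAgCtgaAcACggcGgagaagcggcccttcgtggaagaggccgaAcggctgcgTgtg
Sox2: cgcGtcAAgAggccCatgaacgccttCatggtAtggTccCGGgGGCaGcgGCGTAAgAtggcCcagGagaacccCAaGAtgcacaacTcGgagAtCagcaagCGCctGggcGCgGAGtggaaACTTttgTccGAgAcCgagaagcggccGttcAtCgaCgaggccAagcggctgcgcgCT
Sox18 differed from Sox17 at 28 of the 180 bases and Sox2 at 57. The longest exact run that the transcripts of any 2 members share was 48 bases, between Sox4 and Sox11, and it was 32 bases between Sox2 and Sox3 and 29 bases between Sox17 and Sox18. The read length is not given in the sources used here, so whether reads could be split between Sox4 and Sox11 over that run was not tested.

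All 10 genes had fragments in both libraries. The cut-off was a fold change (FC) of at least 2, taken without a pseudocount, together with an FPKM of at least 2 in at least 1 library. Of the 10 genes, 8 reached the minimum, and Sox7 and Sox18 stayed under it in both libraries. Past the cut-off, 4 genes were lower (Sox6, Sox9, Sox11 and Sox17) and 1 gene was higher (Sox15). Over all 12376 genes that reached the minimum, 8.39% were past the cut-off downward, 6.73% upward and 15.1% in either direction. Without regard to size, the library labelled Diff–iKO had the lower value for 8 of the 10 genes, and for 50.7% of all genes that reached 1 FPKM in at least 1 library. The median log2 ratio of FPKM + 0.1 was -0.99 over the 10 genes and -0.01 over the 13145 genes whose mean FPKM reached 1. The 10 genes were chosen with earlier results of these data known, so these comparisons describe the set and do not test it.

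**Figure D1:**
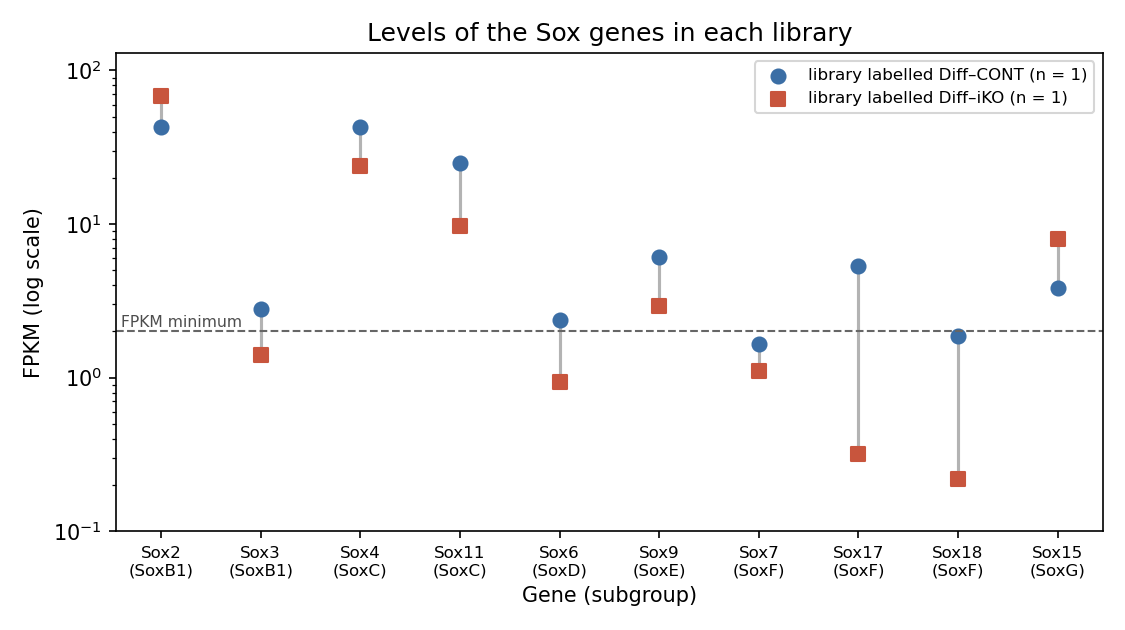
FPKM of each Sox gene (log axis) in the library labelled Diff–CONT (circles) and the library labelled Diff–iKO (squares), 1 library each, with a grey line joining the 2 values of a gene and a dashed line at the FPKM minimum of 2. Among the Sox genes described, only Sox2 and Sox15 have the square above the circle, and the longest lines are those of Sox17 and Sox18.

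Sox2, which works with Oct4 in the pluripotency network and later keeps neural progenitors undifferentiated, had 42.7 FPKM in the library labelled Diff–CONT against 68.2 in that labelled Diff–iKO. This 1.60-fold higher value (log2 ratio 0.68, interval 0.60 to 0.76) was outside counting error and under the cut-off. Sox3, an X-linked SoxB1 gene of the primed epiblast and the neural plate, had 2.78 and 1.40 FPKM. Its log2 ratio of -0.99 (interval -1.45 to -0.55) lay just short of the cut-off, with 157 and 59 fragments. The log2 ratios of Sox2 and Sox3 thus lay on opposite sides of 0, and Sox2 stood at 15.3 and 48.8 times the FPKM of Sox3. Sox1, the remaining SoxB1 gene and an early neural gene, had 3.20 and 1.83 FPKM, a log2 ratio of -0.81 (interval -1.06 to -0.56), on the side of Sox3. Sox2 lies inside Sox2ot, a long transcript on the same strand that shares 0 exon bases with it, and Sox2ot had 1.00 and 1.15 FPKM.

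Pluripotency genes were mostly higher as well. Of 25 such genes, 19 were higher and 2 were lower past the cut-off, with a median log2 ratio of 2.14 and summed levels of 759.6 and 3570 FPKM. None of the 25 was at 0 in either library. Pou5f1, which encodes Oct4, rose from 60.8 to 247 FPKM, with a log2 ratio of 2.02 (interval 1.95 to 2.09), and Nanog rose from 19.5 to 81.2. The log2 ratio of Sox2 was well below theirs, and its interval did not reach the interval of either gene. The genes of this list that were lower past the cut-off were Lin28a (103 to 28.6) and Fgf5, a marker of the primed epiblast (7.96 to 1.97). The part of these cells in the values of the Sox genes was not tested, and in bulk RNA fewer cells of a type and less RNA per cell cannot be told apart.

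The SoxC genes were among the highest of the family. Sox4, which acts in neural, cardiac outflow and lymphoid progenitors, had 42.7 FPKM in the library labelled Diff–CONT, the same level as Sox2, against 24.0 in that labelled Diff–iKO. Its log2 ratio of -0.83 (interval -0.90 to -0.77) was outside counting error and under the cut-off. Sox11, a factor of neuronal and mesenchymal progenitors (chromosome 12, 27334264 to 27342574), fell from 25.1 to 9.75 FPKM. The log2 ratio of -1.37 (interval -1.44 to -1.29) rested on 6114 and 1773 fragments and was the best measured of the changes past the cut-off. Sox12, which is the remaining SoxC gene, had 18.8 and 9.68 FPKM, a log2 ratio of -0.96 with an interval (-1.07 to -0.85) on both sides of the cut-off. Summed over Sox4 and Sox11, the level was 67.8 FPKM and 33.7 FPKM. The counting of strand is not stated, and an antisense gene, Gm26735, shares 2616 of the 4795 exon bases of Sox4.

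Neural genes were set beside the SoxB1 and SoxC genes. Of 19 neural genes that reached the FPKM minimum, 5 were lower and 0 were higher past the cut-off. The median log2 ratio was -0.58 over 20 neural genes, and -0.37 over those whose mean FPKM reached 5. Msi1, an RNA-binding protein of neural progenitors, fell from 34.2 to 12.3 FPKM and Dcx, a microtubule protein of migrating neurons, from 5.66 to 2.69. The interval of Dcx, -1.49 to -0.67, includes the cut-off. Tead2, a transcription factor gene that SoxC factors are known to bind, had 118 and 62.4 FPKM (log2 ratio -0.92), and Fabp7, a radial glia gene, had 98.1 and 100.3 FPKM (0.03). The neural genes with the highest FPKM, these 2 genes and Tubb3 (60.1 FPKM at first, log2 ratio -0.42), thus did not pass the cut-off. The value was higher for 6 of the 20 genes, among them Stmn2, a gene of growing axons (36.1 and 56.5, log2 ratio 0.64), and Nes, an intermediate filament gene of neural progenitors (28.8 and 44.1, log2 ratio 0.62), both under the cut-off with intervals above 0.

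Sox9, the factor that starts the cartilage programme and also acts in kidney, gonad and neural crest (chromosome 11, 112782224 to 112787760), fell from 6.08 to 2.91 FPKM. Its fold of 2.09 was close to the cut-off, the interval of its log2 ratio of -1.06 (-1.28 to -0.86) includes it, and with a pseudocount of 1 it no longer passed. Sox6, which with Sox5 supports Sox9 in chondrocytes and which represses embryonic globin genes in red cells, fell from 2.37 to 0.937 FPKM. Its log2 ratio was -1.34 from 187 and 55 fragments, with an interval of -1.80 to -0.90 that also includes the cut-off. It no longer passed with a pseudocount of 1 (log2 ratio -0.80), with an FPKM minimum of 5, or with FPKM of at least 2 asked of both libraries. The other SoxD genes had ratios in the same range. Sox13 fell from 22.2 to 8.50 FPKM (-1.39, interval -1.51 to -1.26), and Sox5, under the FPKM minimum, had 1.81 and 0.739 FPKM (-1.29, interval -1.85 to -0.76). The other SoxE genes differed from Sox9 and from each other. Sox8 had 1.62 and 1.98 FPKM, with an interval of -0.07 to 0.65 that includes 0, and Sox10, a neural crest gene, had 0.817 and 0.0706 FPKM from 62 and 4 fragments.

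Of 12 cartilage genes that reached the FPKM minimum, 4 were lower and 1 was higher past the cut-off, with a median log2 ratio of -0.25 over 14 genes, and of -0.07 over those whose mean FPKM reached 5. Col2a1, the type II collagen gene and a direct target of Sox9, fell from 89.9 to 21.2 FPKM (-2.08, interval -2.15 to -2.02). Fgfr3 fell from 10.3 to 2.21, Col9a1 from 8.61 to 0.368 and Hapln1, a link protein of the cartilage matrix, from 5.06 to 0.486. Col11a1 had 34.6 and 39.2 FPKM and Col9a2 29.4 and 38.8, so the collagen genes of the list did not go together. Ctgf, a matricellular gene of many cell types, was the gene that rose (139 to 385). Acan, which encodes the main cartilage proteoglycan, was under 1 FPKM in both libraries (0.395 and 0.946).

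Among the 10 genes, Sox17 and Sox18 of the SoxF subgroup had the largest log2 ratios and Sox7 the smallest, in absolute size. Sox17, the endoderm and arterial factor on chromosome 1 from 4490931 to 4497354, fell from 5.36 to 0.317 FPKM. It was 16.9-fold lower (log2 ratio -4.08, interval -5.23 to -3.13), from 214 and 9 fragments counted with its shortest RefSeq transcript. It ranked 44 from the lowest among the 12376 genes tested, and was not called where both libraries had to reach the FPKM minimum. Sox18, a factor of blood and lymphatic endothelium on chromosome 2 from 181669836 to 181671640, had 1.86 and 0.218 FPKM, from 80 and 7 fragments. Its log2 ratio was -3.10 (interval -4.46 to -1.99), but it stayed under the FPKM minimum and so outside the cut-off. Sox7, a gene of parietal endoderm and early vessels, had 1.64 and 1.10 FPKM (log2 ratio -0.58, interval -0.99 to -0.17), and this interval does not meet those of Sox17 and Sox18. Sox17 had 3.26 times the FPKM of Sox7 in the library labelled Diff–CONT, and Sox7 had 3.48 times the FPKM of Sox17 in that labelled Diff–iKO. Sox7 had the lowest value of the subgroup in the first library, but its counting interval overlapped that of Sox18. It had the highest value in the second, where the intervals of Sox17 and Sox18 overlapped. The summed SoxF level was 8.86 FPKM and 1.63 FPKM, a log2 ratio of -2.44. With a pseudocount of 1 these log2 ratios were smaller, at -2.27 for Sox17, -1.23 for Sox18 and -1.36 for the sum. An antisense gene, Gm37587, shares 804 exon bases with Sox17, and its level was not analysed here.

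**Figure D2:**
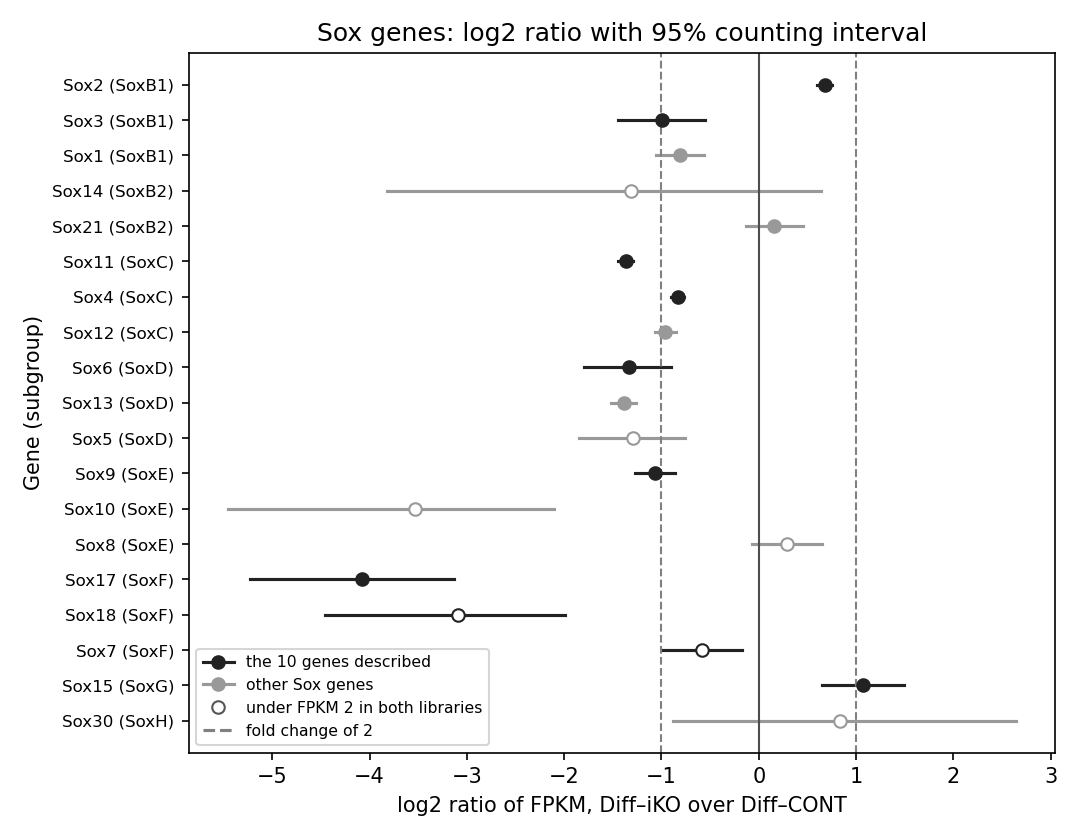
Log2 ratio of FPKM (library labelled Diff–iKO over library labelled Diff–CONT, no pseudocount) of the 10 Sox genes described (black) and the other Sox genes (grey) with 95% counting intervals, which do not cover differences between cultures. Dashed lines mark a fold change of 2 and open points are genes under the FPKM minimum. Sox17, Sox18 and Sox10 lie farthest to the left, and Sox15 is the point right of the upper dashed line, and Sry, listed at 0, has no point.

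Endoderm and vessel genes were read beside the SoxF genes. All 30 endoderm genes reached the FPKM minimum, and 19 were lower and 0 were higher past the cut-off. The median log2 ratio was -1.68, and -1.32 over those whose mean FPKM reached 5. Those lower included Ttr, a thyroid hormone carrier of visceral endoderm (66.7 to 2.28 FPKM), Afp, alpha-fetoprotein (45.9 to 0.422), and Dab2, an endocytic adaptor (50.6 to 7.71). The 3 genes of the list with the highest FPKM, matrix genes which many cell types also express, did not pass, with Sparc at 708 and 1244, Col4a1 at 327 and 575 and Col4a2 at 248 and 407. Without regard to size, 8 of the 30 genes, these 3 among them, had the higher value in the library labelled Diff–iKO. The summed level of the list was 2190 and 2931.5 FPKM, against the direction of its median. None of the 30 was at 0 in either library.

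Of 24 endothelial genes that reached the FPKM minimum, 11 were lower and 4 were higher past the cut-off, with a median log2 ratio of -0.85 over 26 genes, and of -0.34 over those whose mean FPKM reached 5. Kdr, the VEGF receptor, fell from 12.2 to 4.37 FPKM and Cdh5, the cadherin of endothelial junctions, from 10.3 to 4.34. Pecam1, an adhesion receptor that mouse ESCs also carry, rose from 16.2 to 53.9 and Eng, a TGF-beta co-receptor, from 7.31 to 28.9. The summed level of the endothelial list was 264 and 259 FPKM. Of 7 lymphatic genes that reached the minimum, 4 were lower and 0 were higher past the cut-off. Prox1, the lymphatic regulator that Sox18 is known to switch on, fell from 3.03 to 0.960 FPKM, and Nr2f2, a venous and lymphatic nuclear receptor, from 8.86 to 3.20. Pdpn, the surface protein with the highest FPKM of the list, had 52.3 and 41.0 FPKM, under the cut-off. Flt4, the lymphatic VEGF receptor, had the higher value in the library labelled Diff–iKO (3.55 and 4.94, log2 ratio 0.48, interval 0.32 to 0.63), also under it. The lymphatic hyaluronan receptor Lyve1 was at 0.110 and 0.0184 FPKM and Ccl21a at 0 in both libraries, so these defining markers were near or at 0. Whether the SoxF values came with fewer endoderm or vessel cells was not tested.

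Sox15 (SoxG), which lies on chromosome 11 from 69655314 to 69656727, had 3.82 and 7.99 FPKM and was the gene of the 10 past the cut-off upward. The fold was 2.10 and the log2 ratio 1.07 (interval 0.65 to 1.496), from 78 and 122 fragments, so the interval includes the cut-off. With each library scaled to the same FPKM sum, or with a pseudocount of 1, it no longer passed. Sox15 shares 31 exon bases with Mpdu1, a glycosylation gene on the opposite strand, which had 36.1 and 59.3 FPKM. Of 17 trophoblast genes that reached the minimum, 6 were higher and 3 were lower past the cut-off, with a median log2 ratio of 0.50. Hand1, a regulator of trophoblast giant cells and of heart, fell from 70.8 to 31.3 FPKM, whereas the placental lactogen gene Prl3b1 rose from 1.82 to 22.4 and Tfap2c, a trophoblast and germ cell factor, from 6.68 to 24.1.

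The order of levels differed between the libraries. In the library labelled Diff–CONT it ran Sox2, Sox4, Sox11, Sox9, Sox17, Sox15, Sox3, Sox6, Sox18 and Sox7. The exact Poisson intervals of neighbours overlapped except for Sox4 over Sox11 and Sox11 over Sox9, so Sox2 and Sox4 could not be told apart by counting. In the library labelled Diff–iKO it ran Sox2, Sox4, Sox11, Sox15, Sox9, Sox3, Sox7, Sox6, Sox17 and Sox18. Here Sox2 stood 2.85 times above Sox4, and neighbours overlapped for Sox11 with Sox15, Sox3 with Sox7, Sox7 with Sox6 and Sox17 with Sox18. Sox17 moved from place 5 to place 9 and Sox15 from place 6 to place 4. These intervals cover counting error in 1 library each.

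The summed FPKM of the 10 genes was 134 and 117 (log2 ratio -0.20, approximate counting interval -0.25 to -0.16). The sum hid the spread among members, since without Sox2 it was 91.7 and 48.6 FPKM. Sox2 made up 31.8% of the sum in the library labelled Diff–CONT but 58.4% in that labelled Diff–iKO. The SoxC genes made up 50.5% and 28.9%, the SoxF genes 6.59% and 1.40%, and Sox15 2.84% and 6.84%. Of the 10 other Sox genes, 4 reached the FPKM minimum, and 1 of these (Sox13) was past the cut-off, downward. Sox21, a SoxB2 gene, had 2.00 and 2.24 FPKM. Sox14 and Sox30 were under 0.2 FPKM in both libraries, and Sry was listed at 0 in both.

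**Figure D3:**
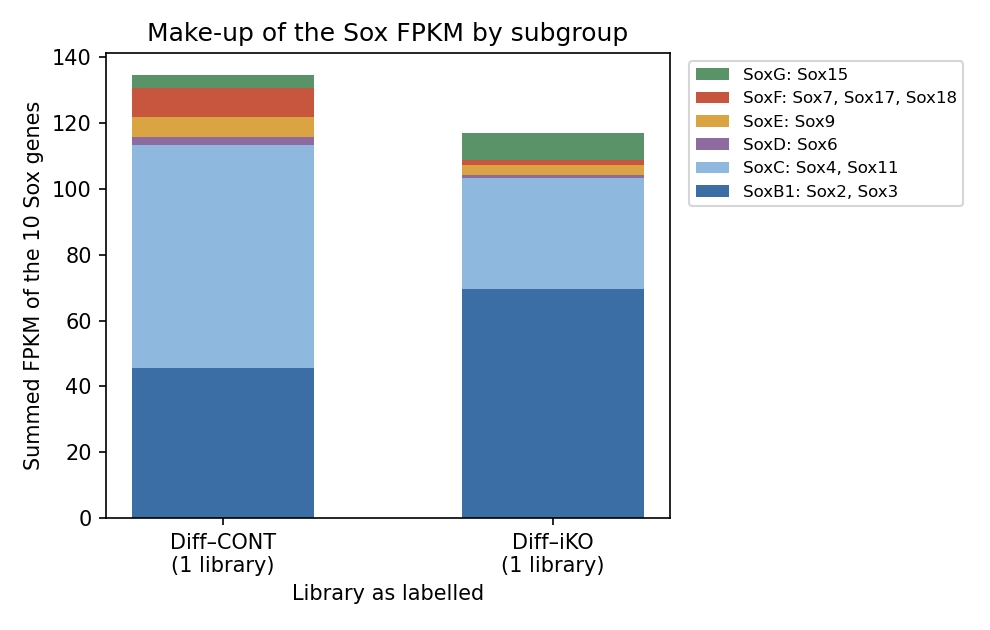
Summed FPKM of the 10 Sox genes in each library, 1 library per bar, stacked by subgroup on an axis from 0. The bars end at 134 and 117 FPKM, and the SoxB1 block at the bottom grows from 45.5 to 69.6 FPKM while the SoxC block above it shrinks from 67.8 to 33.7 FPKM.

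RefSeq promoters (GRCm38.p6, 250 bases before to 50 bases after a start) were held by the sequence table for Sox2, Sox4, Sox6, Sox11 and Sox15. Entries for Sox3, Sox7, Sox9, Sox17 and Sox18 were missing. Those of Sox2, Sox11 and Sox15 are printed because these genes have the highest level, the fall past the cut-off with the most fragments and the rise past the cut-off. They lie at chr3:34649745-34650044 (plus strand), chr12:27342669-27342968 (minus strand) and chr11:69654787-69655086 (plus strand). The GENCODE models of these genes start at 34650405, 27342574 and 69655314, so the windows stop short of those models. Capitals mark CpG dinucleotides.
Sox2: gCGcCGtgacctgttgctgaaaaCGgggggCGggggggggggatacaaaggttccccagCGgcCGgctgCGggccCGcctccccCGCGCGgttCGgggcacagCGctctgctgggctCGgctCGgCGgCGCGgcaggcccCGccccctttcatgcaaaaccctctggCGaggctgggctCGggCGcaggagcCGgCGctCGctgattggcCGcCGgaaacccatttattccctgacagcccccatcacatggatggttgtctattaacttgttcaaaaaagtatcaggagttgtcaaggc
Sox11: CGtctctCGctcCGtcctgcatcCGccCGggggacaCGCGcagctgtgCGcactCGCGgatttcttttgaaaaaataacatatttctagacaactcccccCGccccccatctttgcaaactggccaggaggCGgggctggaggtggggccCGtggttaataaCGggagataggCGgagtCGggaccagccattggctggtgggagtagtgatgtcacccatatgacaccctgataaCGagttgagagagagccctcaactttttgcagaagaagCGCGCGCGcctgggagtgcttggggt
Sox15: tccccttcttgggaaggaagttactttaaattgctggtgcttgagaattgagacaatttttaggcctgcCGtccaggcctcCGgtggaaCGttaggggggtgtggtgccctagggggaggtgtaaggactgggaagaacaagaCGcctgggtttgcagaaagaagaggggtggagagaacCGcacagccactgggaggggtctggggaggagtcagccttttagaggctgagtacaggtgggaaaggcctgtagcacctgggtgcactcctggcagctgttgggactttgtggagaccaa
The Sox2 promoter held 27 CpG dinucleotides, more than 84.5% of the 32851 promoters of the table, the Sox11 promoter held 21 and the Sox15 promoter held 5, against a median of 7. The Sox4 promoter held 12. The motifs AACAATG and AACAAAG, forms of the sequence that HMG boxes of Sox factors bind, were searched on both strands, and matches to them cannot overlap. They were found in 4 of the 6 promoters of Sox6 and in 0 of the promoters of the 4 other genes, and 9.36% of all promoters held at least 1. The 6 windows are alternative starts of 1 gene. The motifs are rich in A and T, and the 4 windows with a match had 39% to 47% GC. The median over all promoters was 52.7% GC, and the count was not tested against base composition. The most upstream promoter of Sox6, at chr7:116038695-116038994 (minus strand), is shown as an example with the motif in capitals.
Sox6: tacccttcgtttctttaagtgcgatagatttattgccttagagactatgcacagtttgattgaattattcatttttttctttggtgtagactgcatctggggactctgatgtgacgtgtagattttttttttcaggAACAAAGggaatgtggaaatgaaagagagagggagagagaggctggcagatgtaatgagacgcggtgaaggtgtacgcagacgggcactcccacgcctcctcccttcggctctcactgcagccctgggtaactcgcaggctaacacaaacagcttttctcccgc
A match of these letters is a description of the window and was not tested as a binding site.

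**Figure D4:**
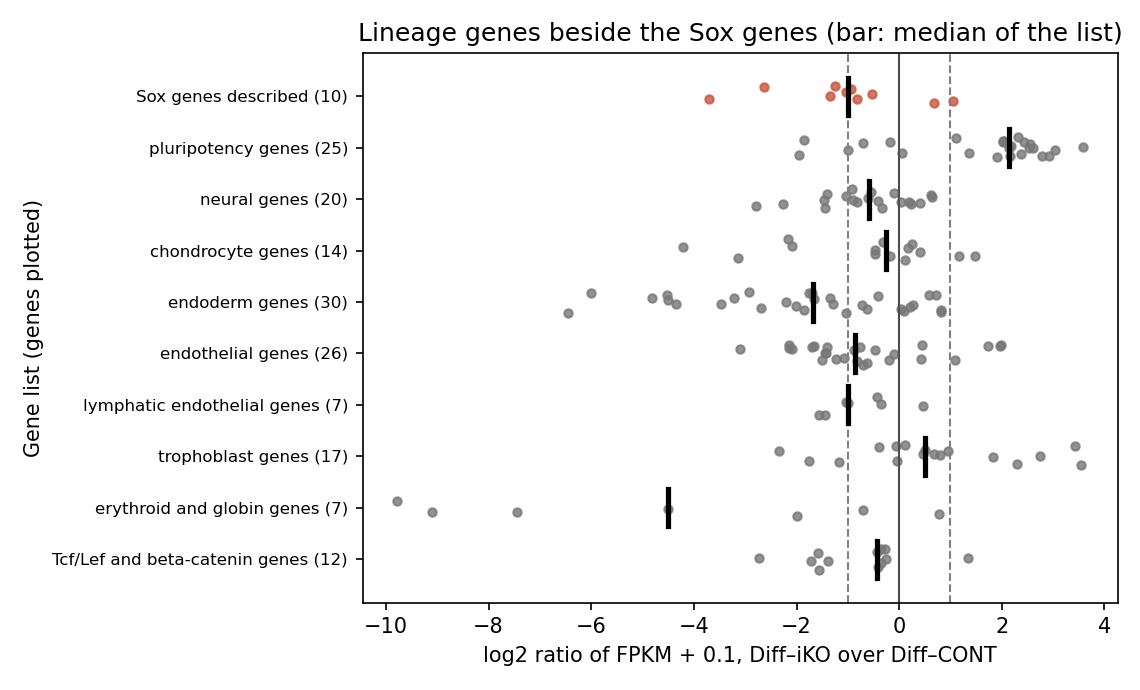
Log2 ratio of FPKM + 0.1 (library labelled Diff–iKO over library labelled Diff–CONT) of each gene whose mean FPKM reached 1, in the Sox genes described and in 9 gene lists, with a black bar at each median and dashed lines at a fold change of 2. The median is highest for the pluripotency genes (2.14) and lowest for the erythroid and globin genes (-4.51), and the Sox genes (-0.99) lie to both sides of 0.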

How the data were processed

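With a stranded mRNA kit, RNA of 2 cultures of differentiating mouse ESCs was sequenced, and the authors deposited FPKM values per gene, 1 column per library. The labels and methods name STAR 2.7.9a on mm10, and Cuffquant and Cuffnorm of Cufflinks 2.2.1. Gene annotation, strand setting and read length are not given in the sources used here. There were 0 other columns of values.

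The log2 ratio of FPKM (library labelled Diff–iKO over Diff–CONT) was taken without a pseudocount, and lists were summarised by the median log2 ratio of FPKM + 0.1 over genes whose mean FPKM reached 1. The 10 genes and the lists were chosen with earlier results of these data known.

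Depth was recovered from the FPKM steps of 10484 genes that have a single RefSeq transcript and at least 1000 nucleotides. Of the low values, 87.4% and 87.8% were within 0.2 of a whole multiple of 1 fragment, against 40% by chance for a depth set beforehand. The depths were fitted to these same values, so the shares describe the fit and do not test it. This gave about 27600000 fragments on genes of Diff–CONT and 21500000 on those of Diff–iKO. Fragments per gene use the shortest RefSeq-linked transcript of GENCODE vM21, which gives the widest interval. They are approximate where the authors' annotation differed. Intervals are 95% Clopper-Pearson intervals for ratios and exact Poisson intervals for levels, and cover counting error only. The steps were tested on simulated data made with the same formula, which does not check the annotation that the authors used. Other pseudocounts, FPKM minimums, fold changes and scalings were tried.

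Named genes were drawn from the 10 genes, the other Sox genes, Ino80, overlapping genes and the 3 genes nearest to Sox17. Of each list, the rule took the 3 genes of highest mean FPKM with up to 3 of the highest past the cut-off. The rule also picked genes that the results leave out, among them Dppa5a, Tdgf1, Ephb4, Egfl7, Nrp2, Itga9, Reln, Krt8, Krt18, Ctnnb1 and Hbp1. Nanog, Lin28a, Fgf5, Col9a1, Col9a2, Hapln1, Acan, Cdh5, Prox1, Lyve1, Ccl21a, Bcl11a, Tcf7, Lef1, Tcf7l2, Nes, Stmn2 and Flt4 were named after their values were seen. Some items are not reported here. Identity of proteins was not analysed here, and coding bases were compared in its place. Calculations ran in Python 3.11.15 with scipy 1.17.1, numpy 2.4.6 and pandas 2.3.3, and plots in matplotlib 3.10.9.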

Additional observations from a re-analysis of the deposited data

How the results depend on the processing

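The count of 1 gene higher past the cut-off became 0 with a pseudocount of 1, 0 with a fold change of at least 4, 0 with each library scaled to the same FPKM sum and 2 with a fold change of at least 1.5, which adds Sox2. The count of 4 genes lower became 2 with a pseudocount of 1, which leaves Sox11 and Sox17, 2 with FPKM of at least 2 in both libraries, which leaves Sox9 and Sox11, and 1 with a fold change of at least 4, which leaves Sox17. The other settings left both counts within 1.5 times. The count of 1 other Sox gene became 2 with FPKM of at least 1 in at least 1 library, 4 without a filter on FPKM, 3 with a fold change of at least 1.5 and 0 with a fold change of at least 4; these settings were added after the data were seen. The log2 ratio of the summed FPKM of the 10 genes was -0.30 with each library scaled to the same FPKM sum, and that of the SoxF genes was -1.36 with a pseudocount of 1. All 50 alternative log2 ratios of the 10 genes kept their sign, and 7 lay outside the counting interval, among them Sox6 (-0.80), Sox17 (-2.27) and Sox18 (-1.23) with a pseudocount of 1. All 45 alternative list medians kept their sign. Over genes with a mean FPKM of 5 or more the cartilage median was -0.07, the neural median -0.37 and the endothelial median -0.34. Over such genes the endoderm median was -1.32, the lymphatic median -0.72 and the erythroid median -8.27. With a pseudocount of 1 the endoderm median was -1.33 and the erythroid median -2.77. Over all listed genes found the erythroid median was -1.76 and the cartilage median -0.16. No paired analysis was possible because each condition had 1 library. Leaving out a library was not possible either, and the 7 to 9 fragments behind Sox18 and Sox17 in the library labelled Diff–iKO set their precision.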

Other observations

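Genes of red cells, which Sox6 is known to act on, had a median log2 ratio of -4.51 over the 7 of 16 genes found whose mean FPKM reached 1, and of -1.76 over all 16. Of 7 erythroid and globin genes that reached the FPKM minimum, 5 were lower and 0 were higher past the cut-off. The embryonic globin genes Hbb-bh1 and Hba-x had 88.2 and 54.9 FPKM in the library labelled Diff–CONT and were listed at 0 in the library labelled Diff–iKO, and Hbb-y fell from 35.04 to 0.102 FPKM, the latter from 1 fragment (log2 ratio -8.42, interval -13.73 to -5.93). Bcl11a, a repressor that acts on globin genes with Sox6, had 3.42 and 2.05 FPKM. Tfrc, the transferrin receptor of all dividing cells, had 86.8 and 149 FPKM.

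Of 12 genes of Tcf/Lef factors, beta-catenin and Wnt feedback, 5 were lower and 1 was higher past the cut-off. Those lower included the feedback genes Axin2 (11.9 to 4.48 FPKM) and Nkd1 (9.50 to 2.83), and Notum, which encodes a Wnt deacylase, rose from 11.2 to 28.3. The Tcf/Lef factors did not pass, with Tcf7l1 at 33.2 and 26.1, Tcf7 at 17.1 and 14.4, Lef1 at 8.58 and 7.08 and Tcf7l2 at 8.40 and 6.26 FPKM. Their log2 ratios lay between -0.42 and -0.25. Over the 2 libraries, the genes whose pair of log2(FPKM + 0.1) values was nearest to that of Sox17 by Euclidean distance were Lhx1 (distance 0.19, 4.74 and 0.296 FPKM), Hkdc1 (0.25, 5.17 and 0.392 FPKM) and Popdc2 (0.39, 4.17 and 0.273 FPKM).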
